A study of Arabidopsis thaliana with 4 samples.

Results

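Polycomb repressive complex 2 (PRC2) of *Arabidopsis thaliana* is encoded by 8 genes considered here, CLF, SWN, MEA, FIE, MSI1, EMF2, VRN2 and FIS2, out of 27444 protein-coding genes on the nuclear chromosomes. They were taken by name as the subunits of the complex, and every summit of open chromatin from 1 kb upstream of the transcription start site (TSS) to the end of each gene was collected. Accessible DNA had been mapped by ATAC-seq, a method that tags open chromatin with adaptors carried by the Tn5 transposase, in flowers of Columbia-0 plants grown on soil for 4 weeks. The groups were the T-DNA mutant *mbd9-3* (2 libraries) and wild type (WT, 2 libraries), and the study examined open chromatin in both. MBD9 carries a methyl-CpG-binding domain and works with the SWR1 complex, which places the histone variant H2A.Z in chromatin. *mbd9-3* is a single mutant allele, and each library came from whole inflorescence tissue, a mixture of cell types.

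PRC2 methylates lysine 27 of histone H3 and keeps developmental genes silent. Each complex holds a catalytic subunit of the Enhancer of zeste type (CLF, SWN or MEA), a zinc-finger subunit of the Su(z)12 type (EMF2, VRN2 or FIS2) and the WD40-repeat proteins FIE and MSI1. CLF, SWN, EMF2, VRN2, FIE and MSI1 are broadly expressed and act through vegetative growth, flowering and the memory of winter cold. MEA and FIS2 are known for their action in the female gametophyte and the endosperm, the nourishing tissue of the seed, where they hold back proliferation before fertilization and are expressed from the maternal allele.

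The DNA just upstream of the TSS is shown for SWN, where the summits of the libraries lay closest together, and for the seed-specific genes MEA and FIS2, where no library had a summit within the bases shown. Each sequence is the 100 bases before the TSS on the coding strand, from RefSeq assembly TAIR10.1, which has the same nuclear chromosomes as TAIR10, the build of the peak lists. Capitals mark the span of the strongest summits in SWN and the TATA box letters in FIS2, and nothing is marked in MEA.
SWN, chr4:886480-886579, plus strand: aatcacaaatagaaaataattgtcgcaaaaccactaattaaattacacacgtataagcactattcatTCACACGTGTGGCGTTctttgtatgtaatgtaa
MEA, chr1:544633-544732, plus strand: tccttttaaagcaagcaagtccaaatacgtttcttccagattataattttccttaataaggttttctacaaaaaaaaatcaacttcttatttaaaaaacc
FIS2, chr2:14992465-14992564, plus strand: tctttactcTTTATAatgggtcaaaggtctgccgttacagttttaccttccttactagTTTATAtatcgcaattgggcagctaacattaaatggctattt

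The marked letters of SWN hold CACGTG, the core of the G-box, which starts at -30 bp from the TSS. This motif was looked for after the SWN sequence had been seen. Within 300 bp upstream it occurred in no other PRC2 gene, and 7.09% of 27443 promoters of that length held it on either strand. The TATA box letters TATAAA occurred upstream of MEA, EMF2 and FIS2 and in 52.86% of promoters, and both copies marked in FIS2 read TATAAA on the opposite strand. GAGAGA, a repeat found at Polycomb target sites, occurred upstream of CLF and MSI1 and in 23.63% of promoters. Both matches lay inside the divergent neighbour, AT2G23370 at CLF and AT5G58220 at MSI1. AACCCTA, the core of the telobox, another sequence of Polycomb targets, occurred upstream of none of the 8 genes and in 7.58% of promoters. A match describes letters only and is not evidence of a bound factor. The base composition of the same 300 bp spanned nearly the whole range of *Arabidopsis* promoters. GC content was 21.0% at FIE and 46.33% at CLF, at percentiles 2.6 and 99.0 of all protein-coding genes, against a median of 31.33%. The 300 bp upstream of CLF lie inside AT2G23370, so the CLF value describes sequence of that gene.

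The *mbd9-3* lists held 45208 and 37609 summits, and the WT lists 44004 and 43962. The commonest background pileup, which stands in for depth because the lists hold no read totals, was 1.72 and 1.79 tags per base in *mbd9-3* replicates 1 and 2, and 1.75 and 2.15 in WT replicates 1 and 2. The smallest pileup listed was 5 tags in both libraries numbered 1 and 6 in both numbered 2, but listing followed the p-value over the local background, so a gene without a listed summit may still have been open at a lower level. At MBD9 itself the lists held 3 and 1 summits in *mbd9-3* and 2 and 1 in WT, and a T-DNA insertion cannot be read from a peak list. Of 6 flower marker genes, AP1, AG, SEP3 and LFY had a summit in every library, AP3 in 2 libraries and PI in 1, where 58.1% of all protein-coding genes had one in every library. Of 3 root markers, PLT1 had a summit in 2 libraries, and WER and CASP1 in none.

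The 8 genes carried 36 summits, 10 and 8 in *mbd9-3* replicates 1 and 2, and 11 and 7 in WT replicates 1 and 2. Of these, 15 lay in the 5′ UTR of the gene, 11 upstream of the TSS, 6 in coding exons, 2 in the 3′ UTR, 1 in an intron and 1 in an untranslated exon. The density over the windows of the 8 genes was 0.232 and 0.186 summits per kb in *mbd9-3* and 0.256 and 0.163 in WT. Over the windows of all protein-coding genes it was 0.452 and 0.376 in *mbd9-3* and 0.446 and 0.442 in WT. The PRC2 windows were thus sparser in summits in each of the 4 libraries. They were also longer, 3234 to 7001 bp against a median of 3078 bp over all genes, and the part of length in the lower density was not tested. CLF, SWN, FIE and EMF2 had a summit in all 4 libraries, VRN2 in 3, FIS2 in 2, MSI1 in 1 and MEA in none. Among all protein-coding genes 58.1% had a summit in all 4 libraries, 11.0% in 3, 9.14% in 2, 9.42% in 1 and 12.4% in none. The 4 of 8 was thus close to the background, with no adjustment for the longer PRC2 windows.

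**Figure D1:**
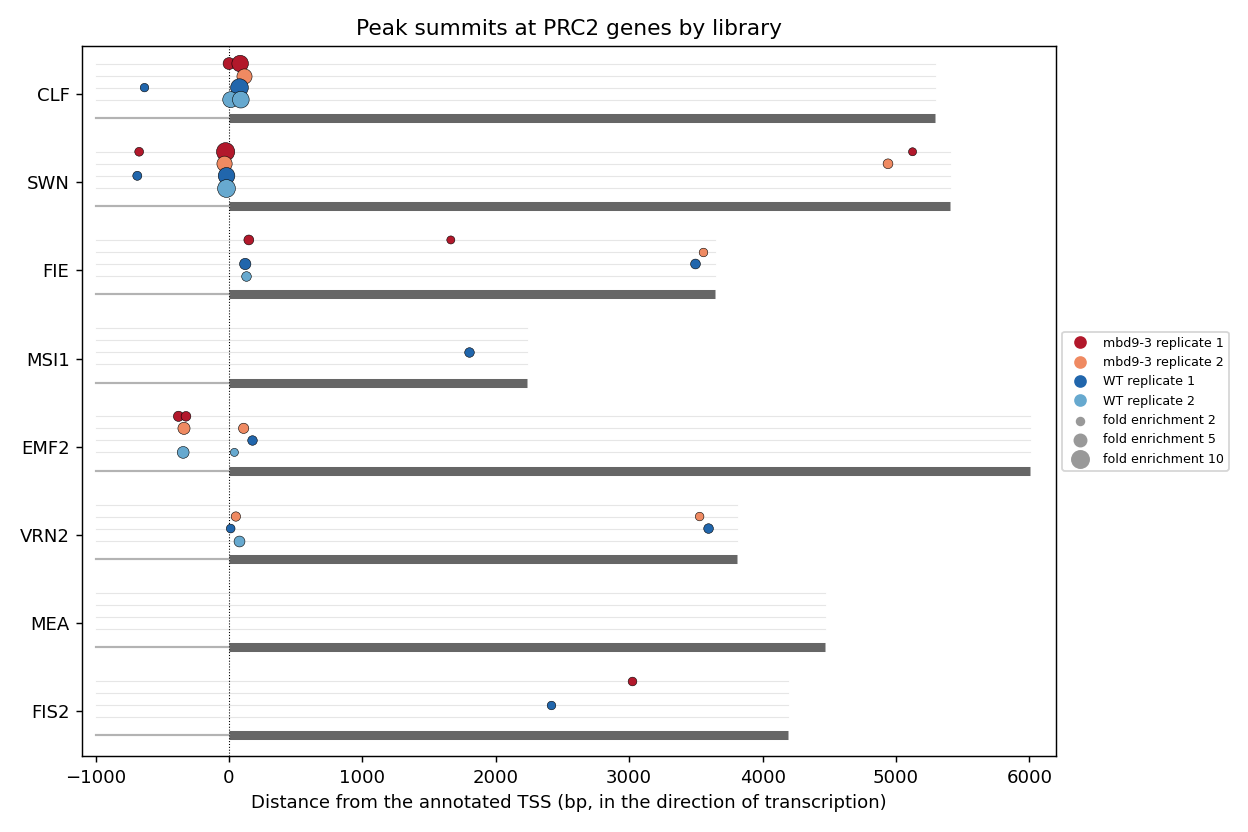
Each point is a summit, placed by its distance from the annotated TSS in bp along the direction of transcription, with 1 line per library for each gene (*mbd9-3* above WT) and the point area set by fold enrichment. The thick bar is the gene and the thin bar the 1 kb upstream. The large points stand at the TSS of CLF and SWN in all 4 libraries, and the MEA window is empty.

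When intervals sharing at least 1 bp were joined over the libraries, the 36 summits fell into 15 regions. Of these, 2 were called in all 4 libraries, 4 in 3, 4 in 2 and 5 in 1 library. Genome-wide, all 4 libraries shared 30.4% of 64218 regions, and 45.4% came from a single library. The 2 shared regions lay at the start sites of CLF and SWN, and no other gene of the set had a region that every library called. The CLF region also spans the start of the divergent gene AT2G23370, so the lists cannot assign it to CLF alone. No region was called in both WT libraries and neither *mbd9-3* library (2.69% of all regions). A single region, at the 3′ end of SWN, was called in both *mbd9-3* libraries and neither WT library (1.54% of all regions), with pileups of 5 and 9 tags. Its intervals overlapped only in part, with summits 5124 bp after the TSS in *mbd9-3* replicate 1 and 4940 bp in replicate 2.

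CLF (AT2G23380, chromosome 2 from 9955092 to 9960386, plus strand), named for the curled leaves of its mutant, encodes the main catalytic subunit of vegetative tissue and keeps floral genes silent in leaves. Its 5′ end overlaps the divergent gene AT2G23370, with a gap of -58 bp, so summits here cannot be assigned to CLF alone. The fold enrichment of its strongest summit over the background of the same library was 9.32 and 7.81 in *mbd9-3* replicates 1 and 2, against 10.7 and 9.53 in WT replicates 1 and 2. These summits lay in the 5′ UTR, 84 and 113 bp after the TSS in *mbd9-3* and 79 and 89 bp in WT. The number of tags overlapping the summit was 26 (95% Poisson interval 16.98 to 38.1) and 23 (14.6 to 34.5) in *mbd9-3*, and 34 (23.6 to 47.5) and 31 (21.1 to 44.0) in WT. Both *mbd9-3* values were below both WT values, but each interval overlapped the other 3, and the background differed between libraries.

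Because lists called separately are not on 1 scale, each summit was also given the percentile of its fold enrichment within its own list, with 0 for a gene without a summit. CLF stood at percentiles 94.9 and 89.6 in *mbd9-3* and 96.2 and 93.1 in WT, which overlap. The means were 92.3 ± 3.68 in *mbd9-3* and 94.7 ± 2.16 in WT (SD, n = 2 each), with p = 0.667 in a two-sided exact permutation test. Without *mbd9-3* replicate 2 the difference in percentile changed sign, to 0.204 against -2.40 with all libraries. With 2 libraries against 2, the smallest p this test can give is 0.333, so no single gene could pass 0.05.

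SWN (AT4G02020, chromosome 4 from 886580 to 891987, plus strand) encodes the catalytic subunit that is partly redundant with CLF. Its fold enrichment was 11.3 and 7.95 in *mbd9-3*, against 9.40 and 10.8 in WT, and the highest and the lowest value both came from *mbd9-3*. The strongest summits lay at -25 and -33 bp from the TSS in *mbd9-3* and at -18 and -24 bp in WT, a spread of 15 bp, which the capitals of the SWN sequence cover. Pileups were 32 (21.9 to 45.2) and 24 (15.4 to 35.7) tags in *mbd9-3*, and 29 (19.4 to 41.7) and 36 (25.2 to 49.8) tags in WT.

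The percentiles of SWN were 97.3 and 90.3 in *mbd9-3* and 94.1 and 95.8 in WT, so the *mbd9-3* libraries lay on either side of the WT libraries. The means were 93.8 ± 4.94 in *mbd9-3* and 94.9 ± 1.19 in WT (SD, n = 2 each), with an exact p of 1.0, and without *mbd9-3* replicate 2 the difference of -1.11 turned to 2.38. Weaker summits stood at -673 bp in *mbd9-3* replicate 1 and at -687 bp in WT replicate 1, with 7 and 8 tags. Among the 15935 genes with a summit in all 4 libraries, the strongest summits lay within 50 bp of each other in 43.5%. CLF, with a spread of 34 bp, and SWN belonged to these, while FIE and EMF2 did not.

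MEA (AT1G02580, chromosome 1 from 544733 to 549202, plus strand), the catalytic subunit of the seed, had no summit within its window of 5470 bp in any library, as was the case for 12.4% of genes. The nearest summit before the window lay at -5092 and -6923 bp from the TSS in *mbd9-3* replicates 1 and 2, and at -1041 and -6900 bp in WT replicates 1 and 2. The summit of WT replicate 1, 41 bp outside the window, lay in the neighbouring gene AT1G02575 and held 7 tags. The next summit after the gene lay in AT1G02590 in every library, 7870 and 7890 bp from the TSS in *mbd9-3* and 7893 and 7884 bp in WT. The stretch without a summit around MEA was therefore 12962 and 14813 bp long in *mbd9-3* and 8934 and 14784 bp in WT. In a mixed tissue, few nuclei with an open site and many with a slightly open one cannot be told apart from such lists.

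FIE (AT3G20740, chromosome 3 from 7248809 to 7252452, minus strand) encodes the Extra sex combs homologue, a WD40 protein shared by the PRC2 complexes. Near its start, between 122 and 149 bp after the TSS, the pileup was 8 tags in *mbd9-3* replicate 1, against 11 and 9 in WT, and *mbd9-3* replicate 2 had no summit there. The strongest summit of *mbd9-3* replicate 2 lay in the 3′ UTR, 3554 bp after the TSS, with 6 tags. WT replicate 1 had a summit in the same region with 8 tags, so the 3′ site was not particular to the mutant.

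Over the whole window, FIE stood at percentiles 43.4 and 7.61 in *mbd9-3* and 64.6 and 29.4 in WT. The values overlapped, with *mbd9-3* replicate 1 above WT replicate 2. The means were 25.5 ± 25.3 in *mbd9-3* and 47.0 ± 24.9 in WT, a difference of -21.5 that did not exceed the SD of either group (n = 2 each, exact permutation p of 0.667). Any 1 library moved it strongly. It was -39.4 without *mbd9-3* replicate 1, -3.55 without *mbd9-3* replicate 2, -3.84 without WT replicate 1 and -39.1 without WT replicate 2.

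MSI1 (AT5G58230, chromosome 5 from 23556012 to 23558245, plus strand), a WD40 histone-binding protein that is also a subunit of the chromatin assembly factor CAF-1, had a single summit in its window. It lay in a coding exon 1799 bp after the TSS in WT replicate 1, with 10 tags, and no library had a summit at the start of this broadly expressed gene. MSI1 lies head to head with AT5G58220 at a gap of 10 bp. The nearest summit upstream lay inside AT5G58220 in every library, at -1205 and -1209 bp from the TSS of MSI1 in *mbd9-3* and at -1498 and -1180 bp in WT, with folds of 3.12 and 3.23 in *mbd9-3* and 3.26 and 2.77 in WT. With a window of 2 kb upstream these summits counted for MSI1, and its difference in percentile was 5.19 in place of -17.3.

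EMF2 (AT5G51230, chromosome 5 from 20823644 to 20829644, plus strand), a Su(z)12-like subunit that holds back flowering, had summits in 2 regions. The upstream region, with summits between -378 and -322 bp from the TSS, lay in the 5′ UTR of the divergent gene AT5G51220, and its highest pileup was 9 and 13 tags in *mbd9-3* and 14 in WT replicate 2, with none listed in WT replicate 1. The region at the TSS of EMF2 had 9 tags in *mbd9-3* replicate 2 and 8 and 6 tags in WT, with none listed in *mbd9-3* replicate 1. In 3 of 4 libraries the strongest summit in the window was thus the one in the neighbouring gene.

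The percentiles of EMF2 were 50.6 and 67.7 in *mbd9-3* and 34.0 and 61.5 in WT. The means were 59.2 ± 12.1 in *mbd9-3* and 47.8 ± 19.4 in WT (SD, n = 2 each), and the exact test gave p = 0.667. The difference of 11.4 was 2.86 without *mbd9-3* replicate 2 and changed sign, to -2.36, without WT replicate 1.

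VRN2 (AT4G16845, chromosome 4 from 9476069 to 9479878, plus strand), a Su(z)12-like subunit needed for the lasting silencing of the flowering repressor FLC after cold, was the only PRC2 gene whose percentiles did not overlap between the genotypes. They were 0 and 20.8 in *mbd9-3*, against 35.5 and 49.2 in WT. The difference was -32.0, from means of 10.4 ± 14.7 in *mbd9-3* and 42.4 ± 9.74 in WT (SD, n = 2 each), and the exact permutation test gave 0.333, the smallest p it allows. Among the 24047 genes with a summit in any library, 19.5% were lower in *mbd9-3* without overlap and 10.2% higher, 29.7% together, so 1 of 7 PRC2 genes was no more than the background.

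The gap at VRN2 depended on which summit was counted. At the TSS, *mbd9-3* replicate 2 had 8 tags at percentile 20.8, while WT replicates 1 and 2 had 8 and 14 tags at percentiles 17.8 and 49.2. The TSS values therefore overlapped, and the higher value of WT replicate 1 came from a coding exon 3595 bp after the TSS, with 9 tags. *mbd9-3* replicate 2 had a summit in the same exon region with 6 tags, and *mbd9-3* replicate 1 had none in the window.

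FIS2 (AT2G35670, chromosome 2 from 14992565 to 14996756, plus strand), the Su(z)12-like subunit of the seed, had a summit in 1 library of each genotype. In *mbd9-3* replicate 1 it lay in an intron 3024 bp after the TSS, and in WT replicate 1 in a coding exon 2417 bp after it, each with 6 tags. These intervals were 65 and 64 bp wide and did not overlap, and replicates numbered 2 had none. The percentiles were 16.04 and 0 in *mbd9-3* and 10.7 and 0 in WT, and the exact permutation p was 1.0. The difference of 2.69 became -5.33 without *mbd9-3* replicate 1 and -2.65 without WT replicate 2.

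**Figure D2:**
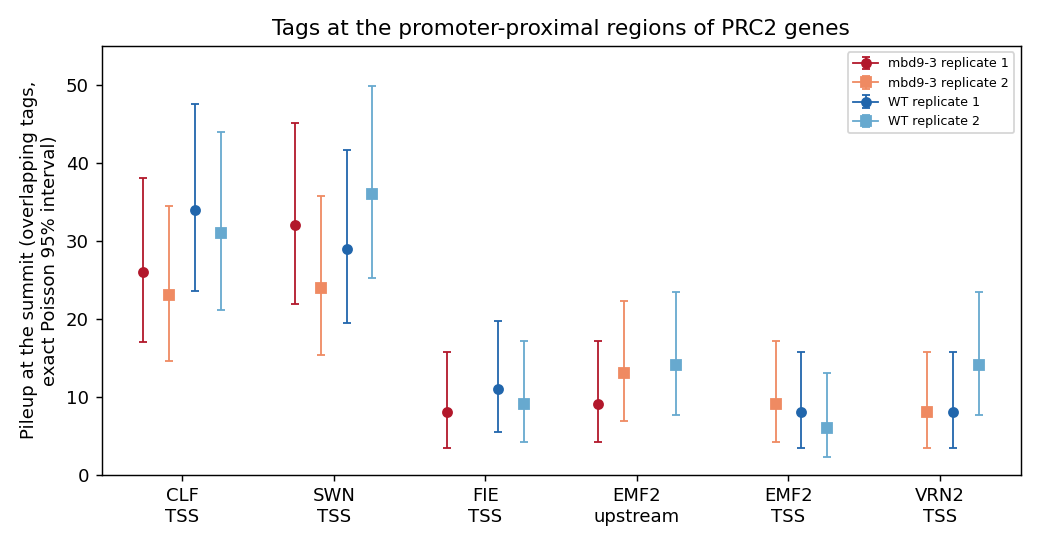
Pileup at the summit, in tags, with its exact 95% Poisson interval for each library (*mbd9-3* left of WT) at the regions called in at least 3 libraries. The CLF and SWN start sites lie between 23 and 36 tags, and the others between 6 and 14.

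**Figure D3:**
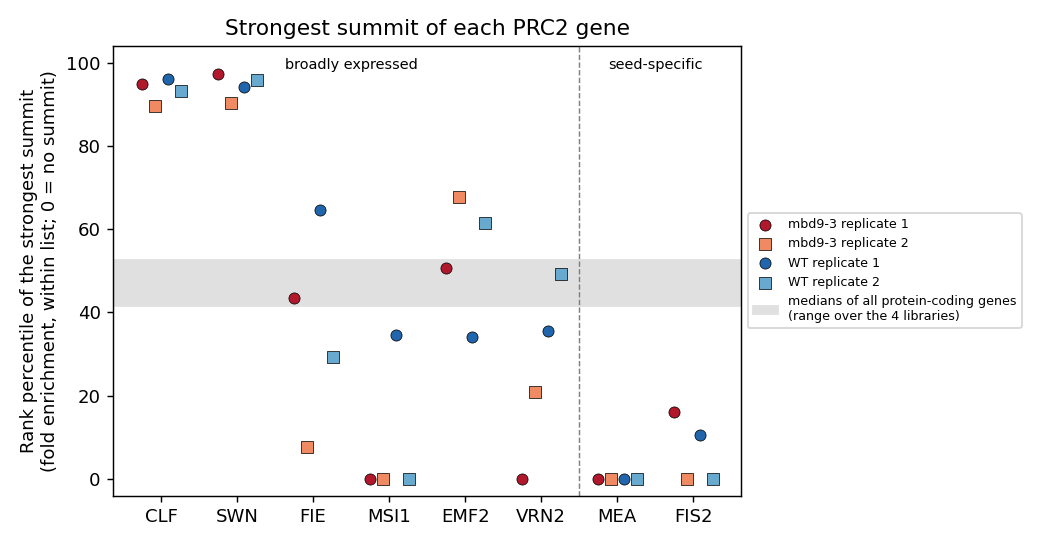
Rank percentile of the strongest summit of each PRC2 gene within the list of its library, from 0 (no summit) to 100, with *mbd9-3* left of WT and 1 point per library. The dashed line separates the broadly expressed from the seed-specific genes, and the grey band spans the medians of all protein-coding genes over the 4 libraries. CLF and SWN stand at 89.6 or above in every library, and VRN2 alone shows no overlap between the genotypes.

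Between genotypes, all genes were fitted together with limma, a linear model with a shared estimate of the spread, on ranks turned into normal scores, with Benjamini-Hochberg adjustment. None of the 15935 genes with a summit in all 4 libraries was called at an adjusted p of 0.05, and 799 (5.01%) had an unadjusted p below it. The smallest adjusted p was 0.945. In this fit the difference in normal score was -0.16 ± 0.38 (SE) at CLF, 0.03 ± 0.39 at SWN, -0.63 ± 0.51 at FIE and 0.49 ± 0.43 at EMF2. The adjusted p-values of these genes lay between 0.965 and 0.999. With libraries without a summit set to the lowest rank, 4 of 24047 genes (0.0166%) were called, with no PRC2 gene among them, and 4.7% had an unadjusted p below 0.05. VRN2 then gave -0.64 ± 0.39, MSI1 -0.41 ± 0.38 and FIS2 0.14 ± 0.36 (adjusted p of 0.960, 0.960 and 0.981).

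The broadly expressed subunits were compared with the seed-specific ones within each library. The median percentile of the 6 broadly expressed genes was 47.0 and 44.2 in *mbd9-3* and 50.04 and 55.4 in WT. In both *mbd9-3* libraries and WT replicate 2, EMF2 was a middle gene of this median, through its summit inside the neighbouring gene AT5G51220. In WT replicate 1 a middle gene was VRN2, through its summit in a coding exon. The median of the seed-specific MEA and FIS2 was 8.02 and 0 in *mbd9-3* and 5.33 and 0 in WT. The difference was 39.0 and 44.2 in *mbd9-3* and 44.7 and 55.4 in WT, so the median of the broadly expressed genes was higher in all 4 libraries. Its mean was 41.6 ± 3.69 in *mbd9-3* and 50.04 ± 7.55 in WT (SD, n = 2 each), and 45.8 ± 6.87 over the 4 libraries. It shrank to 6.35 with -log10 q of at least 5, to 29.9 with 2 kb upstream, and to 0.0 when only summits from 1 kb upstream to the TSS were counted. Both medians were then 0, though SWN kept an upstream summit in every library and MEA and FIS2 had none.

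The separation was not complete, since MSI1 and VRN2 were without a summit in some libraries. Of the 6 broadly expressed genes, 4 and 5 stood above the higher seed-specific gene in *mbd9-3*, and 6 and 5 in WT. The median over all protein-coding genes was 50.6 and 41.7 in *mbd9-3* and 50.6 and 52.7 in WT. The broadly expressed subunits were thus near the middle of all genes, and the seed-specific subunits near the bottom, without adjustment for window length. A low place was common, since only 75.55% and 68.25% of all genes had a summit in *mbd9-3* and 75.33% and 73.82% in WT. The remaining genes share percentile 0. No test over the genes was made, because genes of 1 library are not replicates.

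**Figure D4:**
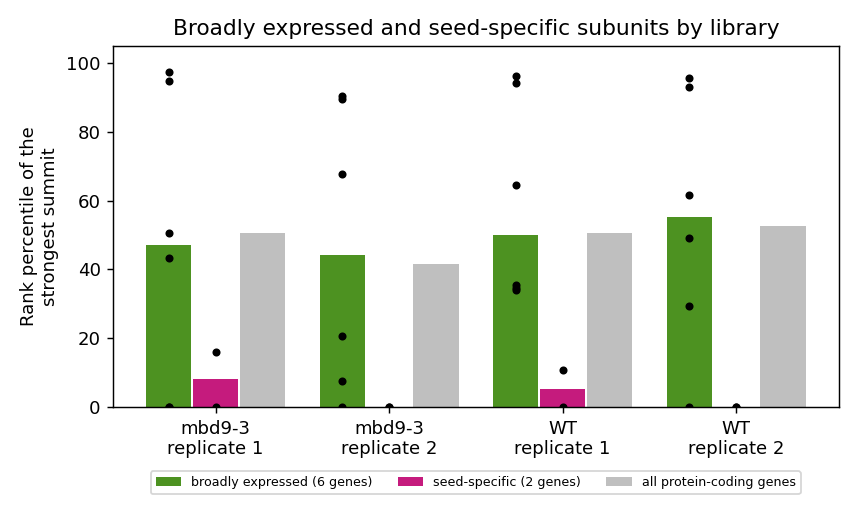
Median rank percentile of the 6 broadly expressed and the 2 seed-specific PRC2 genes in each library, with *mbd9-3* libraries left of WT libraries, and the percentile of each gene as a point. Grey bars are the medians of all protein-coding genes. The broadly expressed median lies between 44.2 and 55.4 and the seed-specific median between 0 and 8.02.

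Start sites were compared in the same way, with a distance chosen after the data had been seen. A summit within 200 bp of the TSS was present in 3 and 4 of the 6 broadly expressed genes in *mbd9-3* and in 5 and 5 in WT, and in neither seed-specific gene in any library. Over all genes the share was 41.51% and 44.24% in *mbd9-3* and 43.22% and 49.61% in WT. CLF and SWN had such a summit in all 4 libraries (32.3% of genes), FIE, EMF2 and VRN2 in 3 (40.3% of genes had it in at least 3), and MSI1, MEA and FIS2 in none (41.9%). In CLF and SWN it was also the strongest summit of the window in each library, as in 23.6% of genes. With -log10 q of at least 5, summits were left in 2 and 3 PRC2 genes in *mbd9-3* and 2 and 3 in WT, CLF and SWN in every library (28.8% of genes) and EMF2 in the libraries numbered 2. FIE, MSI1, VRN2, MEA and FIS2 had none in any library (43.8% of genes). The EMF2 summits that passed lay upstream, in the 5′ UTR of the divergent gene AT5G51220, and no summit at the EMF2 start passed. This filter thus left start-site summits at CLF and SWN only, 2 of the 8 genes, and this was no more than the background of 28.8%. The CLF region also spans the start of AT2G23370 and cannot be assigned to CLF alone.

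Other Polycomb-related genes, among them PRC1 components, accessory proteins of PRC2 and demethylases that remove its mark, were examined in the same windows. Of 18 such genes, 12 had a summit in all 4 libraries, against the background of 58.1%, and BMI1B, a ring-finger protein of the PRC1 group, had none in any library. Their median percentile was 58.2 and 72.4 in *mbd9-3* and 67.9 and 77.5 in WT. The medians of the 8 PRC2 genes were lower, at 29.7 and 14.2 in *mbd9-3* and 35.0 and 39.3 in WT. Without overlap between genotypes, EMF1, ELF6 and VIN3 were lower in *mbd9-3* and MSI5 higher. The limma fit of genes with a summit in all 4 libraries called none of the 12, and VIN3 and MSI5 were not in that fit. Among all genes with a summit in any library, 19.5% were lower and 10.2% higher without overlap, so these 4 of 18 were no more than the background. EMF1 works with PRC1, ELF6 removes methyl groups from H3K27, VIN3 is the cold-induced partner of PRC2 and MSI5 is a relative of MSI1.

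Most markers of seed tissue also lacked a summit in some or all libraries. Of 7 genes of the endosperm or embryo, LEC1 had a summit in all 4 libraries, and FWA, AGL62 and MINI3 had none in any. Among all protein-coding genes these shares were 58.1% and 12.4%. IKU2 lacked a summit only in *mbd9-3* replicate 1, FUS3 had one only in the libraries numbered 1, and PHE1 only in WT replicate 1. Their median percentile was 0 and 0 in *mbd9-3* and 3.86 and 0 in WT. Of 3 male germline genes, GCS1 and MGH3 had a summit in every library, and DUO1 lacked one in WT replicate 1. How much seed tissue the flowers held was not tested.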

How the data were processed

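ATAC-seq was performed on nuclei of flowers from *mbd9-3* and WT plants, 2 libraries per genotype, grouped by sample title. The labels state that replicates were collected for each genotype without saying whether plants were separate, so p-values measure the spread between these libraries. The study's methods state that the authors trimmed reads with trim_galore, mapped single-match reads to TAIR10 with Bowtie (the submitters' processing notes name Bowtie2), and removed organelle and duplicate reads with SAMtools. The peak caller, its options and any Tn5 shift are not given in the sources used here.

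Peaks were deposited per library, and no control library was among the ATAC-seq samples used here. The deposited fold enrichment was taken to be a ratio of summit pileup to the library's own background, each with 1 added. The lowest deposited −log10 p-value was 2.0. The −log10 q-value deposited beside it was taken to be adjusted per list. The score deposited by the authors repeats the p-value in nearly all rows and was not used in a test. The other deposited value is the summit offset, and where it was missing (86 and 45 summits in *mbd9-3*, 81 and 49 in WT) the middle of the interval was used. A site near the p-value threshold can be listed in 1 library and not in another.

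Pileup and background were solved from fold, taken as (pileup + 1)/(background + 1), and p, taken as a Poisson tail. Both forms were assumed, and they returned the listed p within 0.0001 on the −log10 scale for 99.9% of summits. Intervals are exact Poisson (95%) and cover counting error only. Gene models were TAIR10.1 protein-coding genes, coordinates are 1-based, and motifs were searched on both strands. Each gene took the within-list percentile of its strongest summit. Genotypes were compared with limma (version 3.58.1, R 4.3.3) on all genes with a summit in every library, Benjamini-Hochberg threshold 0.05, and with exact two-sided permutation tests. The fit was checked on simulated data. Other steps ran in Python 3.11.15 with scipy 1.17.1, pandas 2.3.3, numpy 2.4.6 and, for plots, matplotlib 3.10.9.

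All 8 genes are named. Other lists are given as counts, with names where a count is 5 or fewer, and the 3 genes with the nearest rank pattern are named. The genes and lists were chosen with earlier results of these data known. Alternatives were windows of 500 bp or 2 kb upstream, promoters alone, −log10 q of at least 2 or 5, lists of equal length, interval overlap, other rank measures, means for medians, omission of VRN2, a replicate block, absent libraries at the lowest rank, and leaving out each library. A window of 200 bp around the TSS and the G-box motif were added after seeing the data.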

Additional observations from a re-analysis of the deposited data

How the results depend on the processing

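The number of PRC2 genes with a summit in all 4 libraries was 4, and 7 with 2 kb upstream, 2 with −log10 q of at least 5, and 2 within 200 bp of the TSS, a setting chosen after seeing the data. Leaving out each library in turn gave 4 to 5. The broadly expressed minus seed-specific difference was 45.8 percentile points, 29.9 with 2 kb upstream and 57.8 without VRN2. It was 31.9 and 6.35 with −log10 q of at least 2 and 5. With promoters alone, where no summit within a gene's own 5′ UTR counts, it was 0.0. Leaving out each library gave 42.7 to 48.1, and it was positive in every setting but promoters alone. There both medians were 0, though SWN kept an upstream summit in every library and MEA and FIS2 had none. Genes called between genotypes numbered 0, against 1 with 2 kb upstream, 4 with absent libraries at the lowest rank, and 0 to 77 when each library was left out. The 77 came without *mbd9-3* replicate 2, which leaves 1 *mbd9-3* library assumed to vary like the others, no PRC2 gene was among them, and the cause was not tested. The replicate numbers do not pair the libraries by any label, and a replicate block gave 0 calls (14 of 24047 genes with absent libraries at the lowest rank), with 6.81% of genes at an unadjusted p under 0.05 (r of same-numbered deviations 0.118 over 15935 genes, with 2 pairs). Differences at single genes changed sign without 1 library at CLF (-5.002 to 0.204), SWN (-4.60 to 2.38), EMF2 (-2.36 to 25.1) and FIS2 (-5.33 to 10.7, and -2.65 without WT replicate 2), and at MSI1 with 2 kb upstream (5.19). FIE and VRN2 kept their sign in every setting that gave a value. At VRN2 leaving out a library could not change the sign, because its percentiles did not overlap between the genotypes. With 2 libraries per genotype and pileups of 5 to 14 tags outside CLF and SWN, a missing summit shows only that a threshold was not reached.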

Other observations

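Over the 4 libraries, the genes whose rank pattern lay nearest to the mean of the 8 PRC2 genes were SKU5 (distance 0.0658 in normal score), CO (0.0729) and AT1G03540 (0.104). SKU5 is a cell wall protein that affects root growth direction and CO promotes flowering in long days. Their percentiles lay between 34.6 and 57.0, and the match is to a mean over genes that differ widely among themselves. Upstream of FIS2 the nearest summit lay at -1644 and -1570 bp from the TSS in *mbd9-3* and at -3211 and -1562 bp in WT, so the stretch between outside summits was 7552 and 8150 bp in *mbd9-3* and 7775 and 6169 bp in WT.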
